A study of Mus musculus with 104 samples.

Results

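The 7 genes described here encode parts of the tight junction: the claudins Cldn3, Cldn4, Cldn6 and Cldn7, the second strand protein occludin (Ocln), the scaffold ZO-1 (Tjp1) and the plaque protein cingulin (Cgn). They were chosen by name from the 24958 genes that the count tables share, and all 7 were present in every library and passed the filter on low counts in every comparison. Tight junctions seal the space between neighbouring epithelial cells. Claudins span the membrane and polymerise into the sealing strands, occludin sits in the same strands, ZO-1 ties them to actin, and cingulin binds ZO-1 on the cytoplasmic side. In the mouse embryo the trophectoderm, the outer epithelium of the blastocyst, assembles such junctions before the blastocoel fills, and primitive endoderm later forms an epithelium of its own.

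The series measured bulk mRNA of mouse stem cells in 26 groups. TC1-GFP pluripotent stem cells (mPSCs) grew in S/L medium (n = 3), and the same line in a medium named 2MYCP gave totipotent blastomere-like cells (mTBLCs), taken at passages 1, 2 and 4 (early, n = 3) and at passages 6, 8, 14 and 19 (established, n = 4). Variants of the 2MYCP culture, all TC1-GFP, were grown on gelatin (passages 7 and 8, n = 2), in 2MYC medium (n = 6), in 2MYP medium (n = 2), with Ctnnb1 knocked out (n = 1) or with ICG001, which blocks the binding of CBP by beta-catenin (n = 1). Further libraries are titled ZHBTc4, a line whose only active Pou5f1 is silenced by doxycycline. They cover S/L medium alone (n = 1), S/L plus doxycycline (n = 1), 2MYCP plus doxycycline at passages 1 to 4 (n = 4), 2MYC plus doxycycline (n = 2) and, at passage 12, 2MYCP alone (n = 1) and 2MYCP plus doxycycline (n = 1). Their cell line field also reads TC1-GFP, and the titles were followed. Cells called TELC and PreLC were both grown in SFH medium for passages 0, 1 and 2 (n = 3 each). Blastoids, embryo models made from stem cells, came from TNKM medium (n = 2), an EB-TSC library from TSC medium (n = 1), and a blastocyst library from an ICR embryo at E3.5 (n = 1). Embryoid bodies of TC1 cells and of mTBLCs in serum medium were taken at days 3, 8, 10 and 12 (n = 4 each), and lines from blastomeres of ICR embryos in 2iLP medium at passages 4 and 5 (n = 2 for each of the titles 4nM and 2-5nM). Hour by hour series in S/L (n = 20, 0 to 92 h), SFH (n = 23, 0 to 96 h) and NTF medium (n = 7, 0 to 96 h) have 1 library per time point. The authors name each of these series as differentiation of mTBLCs, and the series names mTBLCs as the source of the blastoids. The labels neither expand the media names nor tell which libraries were separate cultures. The spread behind each p-value is therefore that of these libraries alone and may be technical.

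The genes lie on GRCm38 at chr5:134986214-134987472 (Cldn3, plus strand), chr5:134945119-134946934 (Cldn4, minus), chr17:23679249-23682446 (Cldn6, plus), chr11:69964779-69967885 (Cldn7, plus), chr13:100496507-100552718 (Ocln, minus), chr7:65296165-65527781 (Tjp1, minus) and chr3:94760069-94786492 (Cgn, minus). Cldn4 and Cldn3 are neighbours, 39.3 kb apart. RefSeq start windows on GRCm38.p6, from 250 bases before to 50 after the start, were given for all 7. The windows of the 4 claudins are printed because the claudins made most of the changes described below and because all of them hold the E-box CACCTG, a sequence that Zeb and Snail repressors are known to bind. Capitals mark CACCTG on either strand, reading as CAGGTG on the other. Cldn3 (chr5:134985964-134986263, plus), Cldn4 (chr5:134946885-134947184, minus), Cldn6 (chr17:23679115-23679414, plus) and Cldn7 (chr11:69965171-69965470, plus) read, 5′ to 3′ on the strand of the gene:
Cldn3: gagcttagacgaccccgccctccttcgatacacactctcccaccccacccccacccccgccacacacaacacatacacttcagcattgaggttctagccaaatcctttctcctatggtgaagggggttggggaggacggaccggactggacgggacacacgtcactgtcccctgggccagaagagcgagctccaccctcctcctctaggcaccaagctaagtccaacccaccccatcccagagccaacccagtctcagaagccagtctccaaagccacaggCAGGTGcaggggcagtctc
Cldn4: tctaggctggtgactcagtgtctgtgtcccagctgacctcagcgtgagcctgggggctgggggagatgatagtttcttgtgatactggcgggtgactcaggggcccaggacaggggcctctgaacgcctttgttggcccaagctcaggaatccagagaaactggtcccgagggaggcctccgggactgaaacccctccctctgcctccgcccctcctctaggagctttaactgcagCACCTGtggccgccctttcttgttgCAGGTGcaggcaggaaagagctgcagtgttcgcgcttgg
Cldn6: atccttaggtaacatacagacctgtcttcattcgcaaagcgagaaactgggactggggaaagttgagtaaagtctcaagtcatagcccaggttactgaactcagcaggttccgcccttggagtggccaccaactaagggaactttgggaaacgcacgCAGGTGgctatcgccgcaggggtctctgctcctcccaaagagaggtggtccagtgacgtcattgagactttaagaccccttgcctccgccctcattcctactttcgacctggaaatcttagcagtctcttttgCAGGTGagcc
Cldn7: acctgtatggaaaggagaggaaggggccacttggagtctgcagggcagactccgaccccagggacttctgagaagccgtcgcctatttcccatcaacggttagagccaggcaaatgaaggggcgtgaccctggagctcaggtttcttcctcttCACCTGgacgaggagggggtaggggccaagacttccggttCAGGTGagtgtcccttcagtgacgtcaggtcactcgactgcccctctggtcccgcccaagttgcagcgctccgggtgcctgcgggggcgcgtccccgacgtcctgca

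Cldn3 holds 1 match, beginning 31 bases after the start. Cldn4 holds 2, beginning 14 bases before and 11 bases after it, Cldn6 2 and the printed Cldn7 window 2. The other RefSeq start of Cldn7 (chr11:69964529-69964828) holds 0. Ocln has 1 in one window and 2 in the other, and Tjp1 and Cgn have 0. Of all 32851 windows of the same length 20.2% hold at least 1 match and 2.88% at least 2. Motifs searched in all were 7: besides this E-box, AACNNGTT (Grainyhead factors, 4.2% of windows) matched Cgn alone, CATTCC (Tead factors, 14.7%) matched Cldn6 and the other Cldn7 start, GCCNNNGGC (Tfap2 factors, 16.6%) matched Cldn3, Tjp1 and Ocln, and TATAAA (13.6%) matched none. GGGCGG was in 35.7% of windows and CACCC in 57.5%. CACCC shares letters with CACCTG but no match of one can lie wholly on the other. A match is a run of letters in this window and was not tested for binding.

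Levels are given as CPM, counts scaled to a common library total. Over all libraries Cldn3 spanned 0.386 to 337 CPM (median 3.0), Cldn4 4.63 to 1683 (median 44.9), Cldn6 4.06 to 1265 (median 55.6) and Cldn7 0.636 to 339 (median 9.61). The other 3 genes spanned less: Ocln 1.63 to 120 CPM, Cgn 4.80 to 262 and Tjp1 10.6 to 544. The highest levels were not in the same libraries. Cldn3 and Cldn4 peaked in ZHBTc4 libraries, Cldn6 in PreLC and TELC, Cldn7 in the blastocyst, Ocln in mTBLC embryoid bodies at day 12, and Tjp1 and Cgn in the EB-TSC library. Set per kb of exon, which allows levels of different genes to be compared, Cldn4 led in the blastocyst at 386 CPM per kb, ahead of Cldn7 at 174, Cldn6 at 76.2, Tjp1 at 43.1, Cgn at 29.7, Ocln at 12.5 and Cldn3 at 6.52. In blastoids Cldn6 led with a median of 336 CPM per kb, ahead of Cldn7 at 71.1 and Cldn4 at 67.0. In established mTBLCs Tjp1 led with 39.4 CPM per kb, and Cldn7 had 1.08 and Cldn3 0.800.

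**Figure D1:**
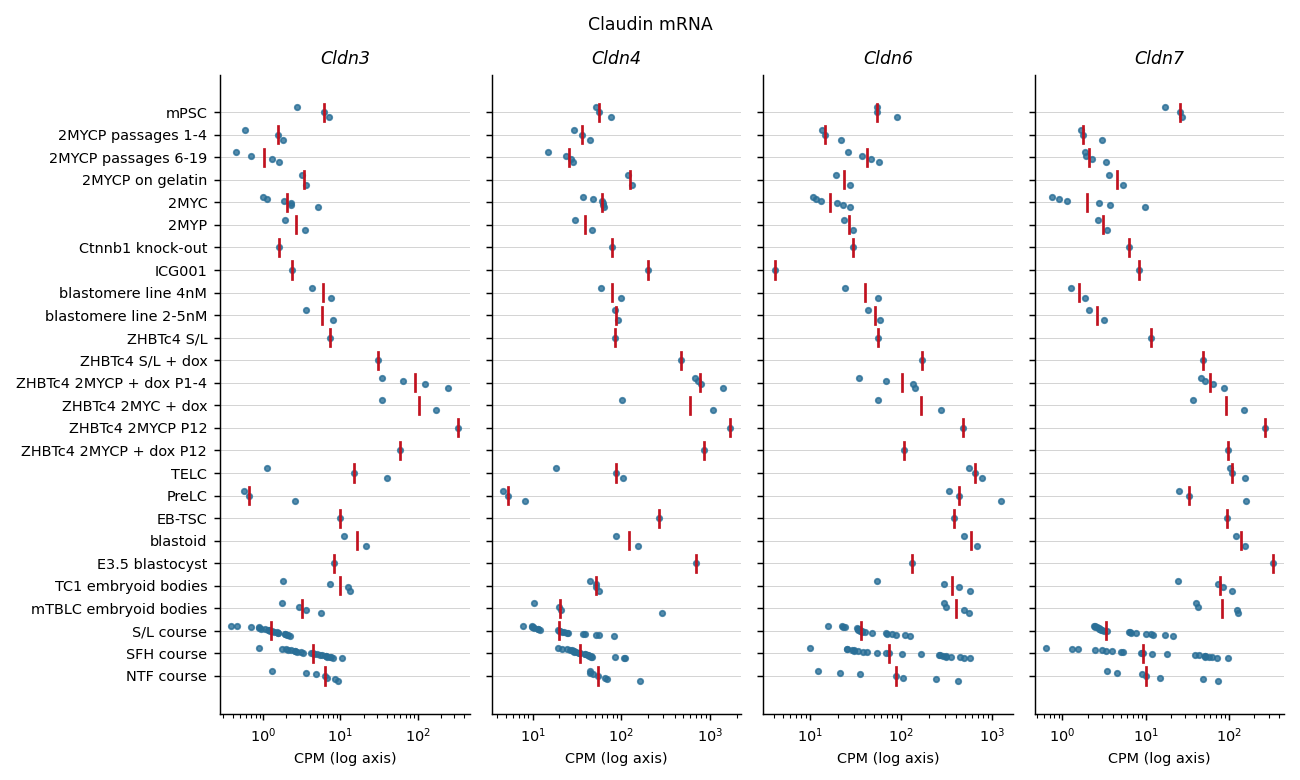
CPM of the 4 claudins on a log axis, 1 point per library and a red line at each group's median, for all 26 groups. Cldn4 reaches 685 to 1390 CPM in the 4 ZHBTc4 libraries of passages 1 to 4 and 4.63 to 8.12 CPM in PreLC, while Cldn6 is at 337 to 1265 CPM in PreLC.

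Library totals ranged from 1040731 to 56992230 counts. The trend of level with exon length differed between them, and its slope (log2 CPM per log10 exon length) was below 0 in 1 mPSC library (-0.99), gelatin passage 7 (-0.56), TELC passages 1 and 2 (-1.33 and -1.08), both ZHBTc4 2MYC libraries (-1.12 and -1.05) and several others, against 1.20 to 1.34 in established mTBLCs. Tjp1, whose exons span 7.81 kb, followed this slope closely, with a Pearson r of 0.94 over all libraries, which share media and depth in blocks. For Cldn3, with 1.26 kb of exon, r was -0.50, for Cldn4 -0.42, for Cldn6 -0.04, for Cldn7 -0.21, for Ocln 0.46 and for Cgn 0.36. Fits were therefore repeated with each library's length trend removed, and the slopes are given beside the results they touch. Other libraries went against their titles in Pou5f1, the pluripotency factor: the ZHBTc4 passage 12 library without doxycycline had 86.6 CPM against 620 in ZHBTc4 S/L, and mTBLC embryoid bodies had 18.9 CPM at day 3 and 944 at day 8. In bulk libraries, fewer cells of a type and less RNA per cell cannot be told apart.

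**Figure D2:**
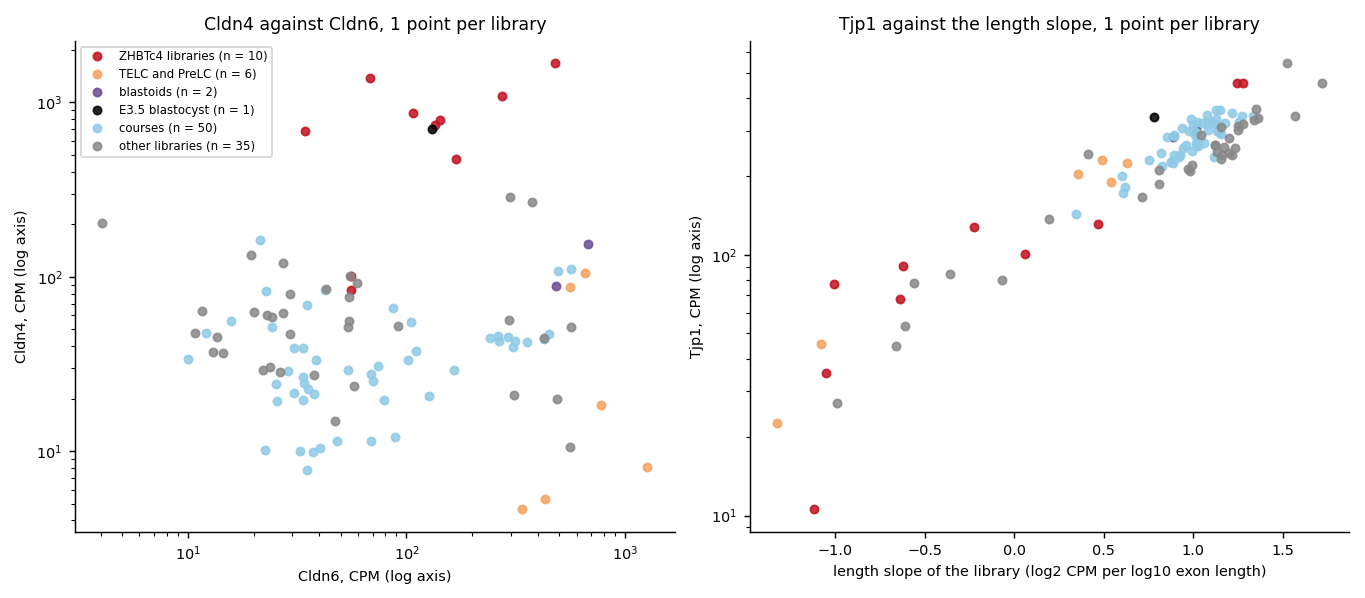
Left, Cldn4 against Cldn6 in CPM on log axes. Right, Tjp1 in CPM on a log axis against each library's length slope. Each point is 1 library, coloured alike in both panels. ZHBTc4 libraries reach up to 1683 CPM of Cldn4 and PreLC up to 1265 CPM of Cldn6, and Tjp1 is at 10.6 CPM in the library with a slope of -1.12 and at 544 CPM in the one with 1.53.

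Cldn3, Cldn4 and Cldn7 were lower in established mTBLCs than in mPSCs. Cldn7, a claudin of many simple epithelia, stood at 27.1, 26.1 and 17.3 CPM in the 3 mPSC libraries and at 1.89, 2.27, 1.93 and 3.37 CPM in established mTBLCs. The groups did not overlap, and the gene fell by 3.48 ± 0.34 (log2, SE, adjusted p = 0.000243, edgeR). Cldn3, its low-level relative here, was at 6.05, 7.20 and 2.73 CPM in mPSCs and at 1.58, 0.699, 1.32 and 0.450 CPM in established mTBLCs, lower in all 4 (-2.55 ± 0.54, adjusted p = 0.00834). Cldn4, the claudin of the blastocyst's outer layer among others, was at 55.9, 52.0 and 76.8 CPM against 27.5, 28.4, 14.9 and 23.6 CPM (-1.56 ± 0.27, adjusted p = 0.00288). These 3 of 7 fell, where 9.88% of the 17525 genes tested fell. The median change was -0.85 for the 7 genes and 0.03 for all genes tested.

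Cldn6, a claudin of early embryonic epithelia, had 54.4, 91.0 and 54.5 CPM in mPSCs and 37.6, 26.4, 47.0 and 57.5 CPM in established mTBLCs, overlapping groups (-0.85 ± 0.32, adjusted p = 0.0768, and 0.0491 with the Wald test of DESeq2). Cgn had -0.84 ± 0.28 (adjusted p = 0.0557), and it passed with DESeq2 size factors, with the Wald test of DESeq2, without the second mPSC library or with the length trend removed (adjusted p = 0.0133 to 0.0449). Ocln and Tjp1 gave 0.06 and 0.61 with adjusted p of 0.938 and 0.475. The mPSC library with a length slope of -0.99 held 27.0 CPM of Tjp1, the other 2 held 232 and 288 CPM. Among the junction's other genes, 3 of 15 partners rose and 2 fell, where 9.53% and 9.88% of all genes did. Jam2, an adhesion receptor of the immunoglobulin family, rose by 1.34 and Cgnl1, the paralog of cingulin, by 1.03, while the ZO-family scaffold Tjp3 fell by 1.81 and the tricellular junction receptor Lsr fell by 0.95 (log2). Of 8 polarity genes only Crb3, an apical determinant, passed (-2.62). Of 11 adherens and desmosome genes 1 rose, Perp (0.81), and 2 fell, the epithelial adhesion molecule Epcam (-2.21) and the desmosomal plaque protein Pkp3 (-1.78). Among 18 regulators of epithelial state 4 rose, among them the repressors Snai2 (2.16) and Zeb2 (2.07), and 2 fell, Esrp1, an epithelial splicing factor, by 1.79 and Tfap2c by 1.30. Of 12 other claudins tested 1 rose and 0 fell. Fibroblast markers rose in 3 of 15 cases (Fbn1 2.09, Col6a3 2.04 and Prrx1 1.90), and Snai2 and Zeb2 are also expressed by fibroblasts. Endoderm markers rose in 6 of 15 cases with a list median of 1.75, and pluripotency markers fell in 4 of 10. Summed fibroblast markers were at 694 to 1493 CPM in mPSCs and 1447 to 2352 CPM in established mTBLCs. The part of these markers in the claudin differences was not tested.

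Growth on gelatin came with higher Cldn4. The 2 gelatin libraries held 120.2 and 133 CPM of Cldn4, each above every established mTBLC library (14.9 to 28.4 CPM) and above the 3 mPSC libraries. The difference from established mTBLCs was 2.65 ± 0.29 (adjusted p = 0.000255). Cldn3 stood at 3.58 and 3.22 CPM (1.96 ± 0.57, adjusted p = 0.0375) and Cldn7 at 3.65 and 5.41 CPM (1.17 ± 0.36, adjusted p = 0.0434), again above all 4 established libraries. So 3 of 7 rose, where 7.73% of genes rose, and the 7 genes had a median of -0.06 against -0.02 for all. With the length trend removed Cldn4 kept its call, Cldn3 gave 1.21 (adjusted p = 0.132) and Cldn7 0.71 (adjusted p = 0.200), and Cldn6 fell by 1.22 (adjusted p = 0.0140). Leaving out a library ended the call of Cldn3 in 5 of 6 cases (adjusted p up to 0.179) and that of Cldn7 in all 6 (0.0619 to 0.237).

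Cldn6 held 27.1 and 19.5 CPM on gelatin, Ocln 5.21 and 8.60, Cgn 17.1 and 28.5 and Tjp1 78.0 and 243, and none of the 4 passed (adjusted p = 0.250 to 0.919). The gelatin library with 78.0 CPM of Tjp1 is the one with a length slope of -0.56. Of 15 junction partners Lsr rose (0.91) and Cgnl1 fell (-2.08), and of 12 other claudins 0 passed. Of all genes 7.73% rose and 8.61% fell. Tfap2a (1.90) and Elf3 (1.35), both epithelial transcription factors, rose, and the repressors Zeb2 (-7.43), Snai2 (-2.94) and Zeb1 (-1.71) fell. Of 15 fibroblast markers 13 fell, their summed level was 66.2 and 69.1 CPM on gelatin and 1447 to 2352 CPM in established mTBLCs, and 3 to 8 of them were at 0 on gelatin. Zeb1, Zeb2 and Snai2 are also expressed by fibroblasts. The part of these markers in the junction results was not tested. Established mTBLCs serve as the reference for mPSCs, gelatin and blastoids, so these comparisons are not independent.

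**Figure D3:**
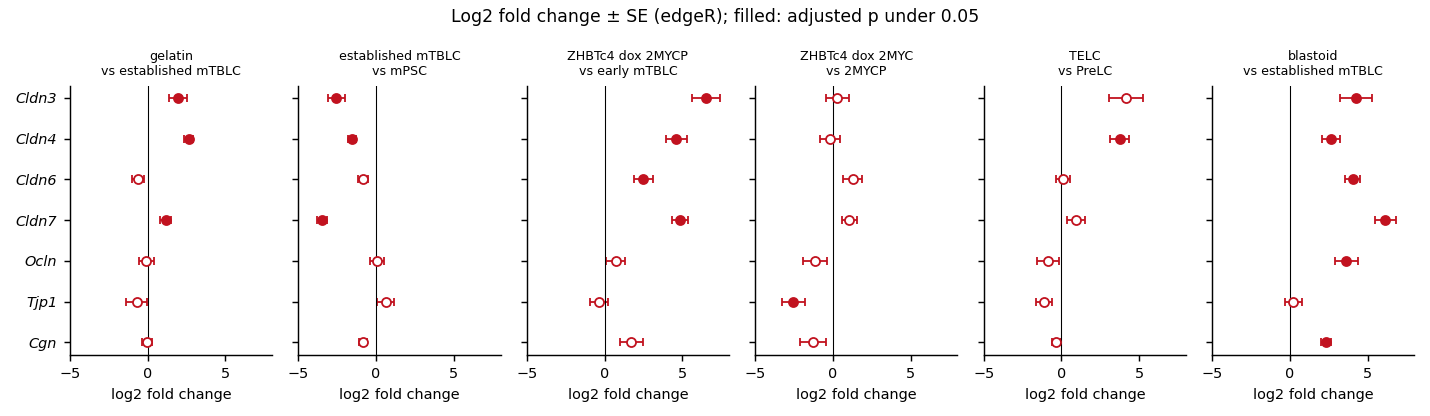
Log2 fold change with its SE (edgeR) of the 7 genes in the 6 comparisons of groups, filled where the adjusted p was under 0.05. Cldn3, Cldn4 and Cldn7 lie to the left of 0 for established mTBLCs against mPSCs and to the right on gelatin, and 6 of 7 genes are filled for blastoids.

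ZHBTc4 cells in 2MYCP with doxycycline held more mRNA of the 4 claudins described here than early mTBLCs. Pou5f1, the gene that doxycycline shuts off in this line, was at 16.7, 5.31, 0.192 and 0.716 CPM at passages 1 to 4, against 970 to 1124 CPM in early mTBLCs. Cldn4 was at 793, 745, 1390 and 685 CPM in these 4 libraries and at 44.9, 29.2 and 36.3 CPM in early mTBLCs. The lowest of the 4 was far above the highest of the 3, and the difference was 4.61 ± 0.69 (log2, adjusted p = 0.00338). Cldn3 was at 34.9, 64.3, 249 and 123 CPM against 1.79, 0.573 and 1.56 CPM (6.5 ± 0.90, adjusted p = 0.00226). Cldn7 was at 46.2, 64.9, 86.8 and 52.0 CPM against 1.79, 1.69 and 2.98 CPM (4.85 ± 0.52, adjusted p = 0.000787). The groups did not overlap for either gene. The design sets another line with doxycycline beside TC1-GFP without it, so line and doxycycline cannot be told apart.

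Cldn6 also rose, from 13.5, 22 and 14.5 CPM to 142, 135, 68.3 and 34.2 CPM (2.50 ± 0.60, adjusted p = 0.0200). It lost the call without each early mTBLC library (adjusted p = 0.0665 to 0.0930) and with passages 2 and 4 alone (0.0596). All 4 of these claudins rose, where 8.34% of 16194 genes rose, and the median was 2.50 for the 7 genes and 0.07 for all. Of 11 other claudins tested 2 rose and 0 fell, with a median of -0.15. The other 3 genes did not pass, with 0.72 for Ocln, 1.72 for Cgn and -0.36 for Tjp1 (adjusted p = 0.425, 0.122 and 0.680). Passage 2 stood apart, with 456 CPM of Tjp1 and 191 CPM of Cgn against 90.9 to 132 and 33.0 to 43.4 CPM at the other passages. Its length slope was 1.28, and theirs were -0.62, 0.06 and 0.47. Without passage 2 Tjp1 fell by 1.21 (adjusted p = 0.0447).

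Around the claudins, 4 of 8 polarity genes rose and 0 fell, with Amot, a junctional regulator of Yap, at 3.90, Crb3 at 2.93 and Pard6b at 2.61 (log2). Of all genes 8.34% rose and 8.43% fell. Of 15 partners 3 rose, Marveld2 (2.77) and Marveld3 (2.54), both of the occludin family, and Lsr (1.99), while Jam2 fell by 5.64 and Ildr1 by 2.87. The desmosomal genes Pkp3 (3.57), Dsc2 (2.84) and Dsp (2.20) rose. Gata3 (3.76), Grhl2 (2.78) and Tfap2a (2.09), factors of trophectoderm and epithelia, were among 5 of 18 regulators that rose, and 0 fell. Trophectoderm markers rose in 8 of 14 cases, with Krt18 at 7.59 and Krt7 at 6.83, and fell in 2, Esrrb (-6.65) and Eomes (-2.95). Their summed level was 4781 to 9904 CPM against 782 to 881 CPM. Their part in the claudin levels was not tested.

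The single ZHBTc4 libraries give levels without a test. Cldn4 was at 84.1 CPM in S/L medium and at 471 CPM in S/L with doxycycline, where Pou5f1 was at 155 CPM. Cldn3 went from 7.29 to 30.3, Cldn6 from 55.8 to 169 and Cldn7 from 11.6 to 49.0 CPM between the same 2 libraries. Their length slopes were -0.23 and 1.24, and Tjp1 read 128 and 458 CPM. At passage 12 with doxycycline Cldn4 was at 867 CPM. The passage 12 library without it held the highest Cldn3 (337 CPM) and Cldn4 (1683 CPM) of all libraries, with 476 CPM of Cldn6 and 268 CPM of Cldn7.

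Between 2MYC and 2MYCP medium the claudins of ZHBTc4 cells had no call. In 2MYC medium with doxycycline the 2 libraries held 100.9 and 1092 CPM of Cldn4, 34.6 and 172 CPM of Cldn3, 55.7 and 274 CPM of Cldn6 and 36.5 and 150.0 CPM of Cldn7. The lower value of each was in the library with 1040731 counts. Against 2MYCP with doxycycline Cldn3 gave 0.28 ± 0.75, Cldn4 -0.17 ± 0.65, Cldn6 1.26 ± 0.60 and Cldn7 1.06 ± 0.46 (adjusted p = 0.813, 0.875, 0.161 and 0.130). Without the larger of these libraries Cldn4 fell by 2.50 (adjusted p = 0.0112). Only Tjp1 passed, at 10.6 and 35.1 CPM (-2.55 ± 0.73, adjusted p = 0.0389), where 8.81% of genes fell and the median of all genes was -0.34. The median of the 7 genes was -0.17. The Tjp1 call was lost without the smaller library (-2.06) or without 2MYCP passage 4 (-2.70, adjusted p = 0.0537). Both 2MYC libraries have slopes below -1, and with the length trend removed the call held.

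Blastoids carried more junction mRNA than established mTBLCs in 6 of 7 genes, where 6.49% of 17429 genes rose. Cldn7 was at 155 and 122 CPM in the 2 blastoid libraries against 1.89 to 3.37 CPM (6.14 ± 0.66, adjusted p = 0.000425). Cldn6 was at 673 and 484 CPM against 26.4 to 57.5 CPM (4.04 ± 0.48, adjusted p = 0.000561). Cgn was at 117 and 111 CPM against 20.8 to 37.8 CPM (2.30 ± 0.31, adjusted p = 0.00109). For these 3 the call held under every alternative run. Their groups lay far apart.

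Ocln, the partner of claudins in the strands, was at 89.8 and 85.5 CPM in blastoids against 7.26 to 10.4 CPM (3.61 ± 0.74, adjusted p = 0.00901). Cldn3 was at 21.7 and 11 CPM (4.26 ± 1.03, adjusted p = 0.0191) and Cldn4 at 155 and 88.2 CPM (2.64 ± 0.56, adjusted p = 0.0105). Without the first blastoid library these 3 missed the threshold (adjusted p = 0.0581, 0.126 and 0.115). Ocln and Cldn3 also missed it without the second (0.0563 and 0.0701), and Cldn3 without established mTBLCs of passage 8 or 19 (0.059 and 0.0592). Tjp1 was at 284 and 303 CPM, within the 280.4 to 329 CPM of established mTBLCs (0.20 ± 0.54, adjusted p = 0.848). The median over the 7 genes was 3.62 against -0.01 for all genes.

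Other epithelial genes moved in both directions in blastoids, where 6.49% of all genes rose and 6.68% fell. Of 15 junction partners 5 rose, led by Marveld2 (3.70), Lsr (2.89) and Tjp3 (2.41), and Jam2 (-4.44) and Jam3 (-2.08) fell. Of 8 polarity genes 5 rose and 0 fell, with Crb3 at 3.98, Patj, its partner in the Crumbs complex, at 3.66 and Amot at 2.93. Of 11 adherens and desmosome genes 3 rose, Epcam (3.02) and the desmosomal Dsc2 (2.65) and Dsp (1.66), and Perp fell (-1.43). Cdx2 (4.80), Esrp1 (3.85) and Tfap2c (1.96) rose among the regulators, and Snai2 (-4.50), Zeb1 (-4.22) and Zeb2 (-3.23) fell. Of 13 other claudins 0 rose and 1 fell. Endoderm markers rose in 10 of 15 cases and trophectoderm markers in 8 of 14, and fibroblast markers fell in 11 of 15, their sum being 35.9 and 32.4 CPM. Summed endoderm markers were at 5350 and 6941 CPM, against 393 to 2614 CPM in established mTBLCs. Which cells of the blastoids carried the junction mRNA was not measured.

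The blastocyst library, without a replicate, differed in order from the blastoids. It held 700.3 CPM of Cldn4 and 339 CPM of Cldn7, both above the 2 blastoid libraries, and 131 CPM of Cldn6, below both. Cldn3 was at 8.21, Ocln at 52.7, Cgn at 179 and Tjp1 at 337 CPM. Its ratio of Cldn6 to Cldn4 was therefore below 1 and that of both blastoid libraries above it.

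TELC and PreLC shared high Cldn6 and differed in Cldn4. PreLC held 5.31, 4.63 and 8.12 CPM of Cldn4 at passages 0, 1 and 2, of which 4.63 was the lowest of all libraries. TELC held 18.4, 87.5 and 105 CPM, all above PreLC (3.76 ± 0.61, adjusted p = 0.0276). This was the only call of 7, where 0.826% of 17429 genes rose, and the median was 0.07 for the 7 genes and 0.02 for all. With the replicate number as a block it was 3.36 with an adjusted p of 0.0765, and with TELC passage 0 alone 1.5 with 0.313. It was also lost without TELC passage 1 or 2 or PreLC passage 0 or 1 (adjusted p = 0.0575 to 0.202).

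Cldn3 was at 1.13, 40.0 and 15.1 CPM in TELC and at 0.565, 0.662 and 2.61 CPM in PreLC (4.14 ± 1.09, adjusted p = 0.0691), overlapping at TELC passage 0. It passed without that library (4.68, adjusted p = 0.00083), without PreLC passage 2 (5.23, 0.0336) and with the Wald test of DESeq2 (0.000438). Cldn6 was at 773, 560.0 and 655 CPM in TELC and at 431, 337 and 1265 CPM in PreLC, without a call (0.07 ± 0.45, adjusted p = 0.935). Cldn7 was at 103.8, 157 and 108 CPM against 33.2, 24.9 and 158 CPM (0.93 ± 0.58, adjusted p = 0.303), and it passed without PreLC passage 2 (2.28, 0.00609). TELC passages 1 and 2, with slopes of -1.33 and -1.08, held 4.24 and 6.75 CPM of Ocln and 22.7 and 45.4 CPM of Tjp1. Passage 0, with a slope of 0.63, held 53.4 and 226 CPM. Without passage 0 Ocln and Tjp1 fell by 2.58 and 2.40 (adjusted p = 0.00403 and 4.87e-05), and 6885 genes passed in place of 164. Of 15 partners and 8 polarity genes 0 passed. Krt7, a keratin of trophoblast, rose by 5.59, and Elf3 and Tead4 fell by 1.67 and 1.41. PreLC and TELC held summed endoderm markers of 14565 to 17071 and 1735 to 11173 CPM, and summed fibroblast markers of 35.4 to 638 and 466.0 to 1775 CPM. With the length trend removed Cldn4 kept its call, no other member gained one, and 109 genes passed. The part of these markers in the differences was not tested.

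**Figure D4:**
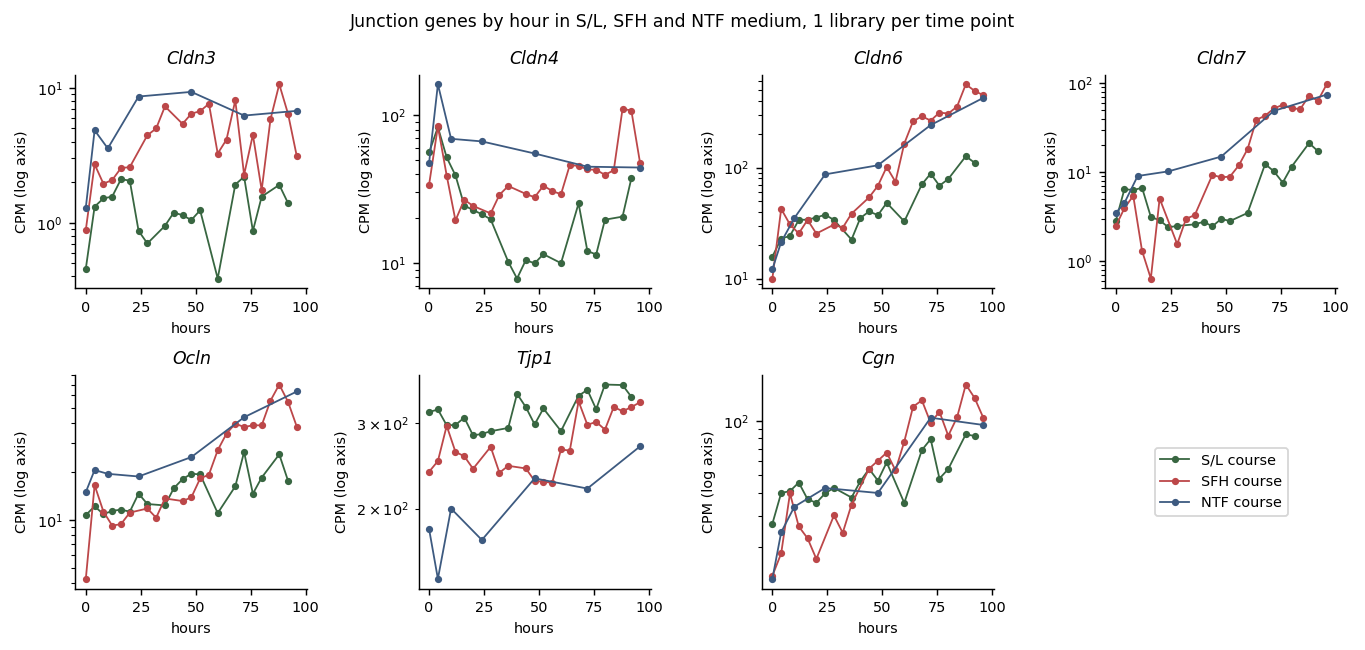
CPM of the 7 genes on log axes against hours in S/L, SFH and NTF medium, 1 library per time point joined by lines. Cldn6 climbs to 564 CPM in SFH and 426 CPM in NTF and to 127 CPM in S/L, and Cldn4 is highest at 4 h or at 88 h.

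In S/L medium Cldn4 fell and later recovered in part. It was at 56.0 CPM at 0 h, 83.0 at 4 h, 7.83 at 40 h and 37.3 at 92 h. On the fitted curve it fell by 2.82 ± 0.27 (log2) from 0 to 48 h (adjusted p = 3.87e-08) and rose by 1.58 ± 0.30 from 48 to 92 h (adjusted p = 0.00045). Cldn6 rose in both spans, by 1.13 ± 0.23 and 1.78 ± 0.22 (adjusted p = 0.000331 and 5.36e-06), from 15.8 CPM at 0 h to 127 CPM at 88 h. Cldn7 was at 2.79 CPM at 0 h, 2.98 at 48 h and 21.2 at 88 h, and rose by 2.82 ± 0.37 after 48 h (adjusted p = 8.66e-06). The fitted Cldn7 change before 48 h was -0.90 ± 0.37 (adjusted p = 0.0506), though the single libraries of 0 and 48 h read nearly alike. It passed with DESeq2 size factors, with the Wald test of DESeq2 or with the length trend removed (adjusted p = 0.0186 to 0.0473). The fit without the 0 h library, taken from 4 to 48 h, passed too (-1.22, adjusted p = 0.00093). Of 7 alternatives 3 did not pass.

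Of the other genes Ocln rose by 0.76 ± 0.21 before 48 h (adjusted p = 0.00424), from 10.7 to 19.4 CPM. Cgn rose by 0.64 ± 0.20 and 0.78 ± 0.20 in the 2 spans (adjusted p = 0.0109 and 0.00631). Without the 0 h library the first span, then taken from 4 to 48 h, gave 0.37 (adjusted p = 0.107). Tjp1 kept within 283 to 360.0 CPM and Cldn3 within 0.386 to 2.19 CPM, with no call. So 3 of 7 rose and 1 fell before 48 h, where 22.5% and 23.2% of 16846 genes did, and 4 of 7 rose after it, where 14.7% did. The median of the 7 genes was 0.15 before 48 h and 0.79 after it, against -0.02 and 0.03 for all genes. In this course the length slope gave a Pearson r of 0.79 with Tjp1, 0.75 with Cldn7, 0.67 with Cgn and 0.62 with Cldn6 (n = 20), and with it removed the calls after 48 h held.

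In SFH medium all members but Cldn4 and Tjp1 rose before 48 h, and all but Cldn3 after it. Changes in brackets are those of the fitted curve from 0 to 48 h and from 48 to 92 h. They differ in size from the steps between the single libraries quoted. Cldn6 went from 10.00 CPM at 0 h to 68.5 at 48 h and 564 at 88 h (1.54 ± 0.30 and 2.68 ± 0.20, adjusted p = 0.000132 and 7.43e-12). Cldn7 went from 2.45 to 8.73 and, at 96 h, 97.3 CPM (1.35 ± 0.43 and 3.16 ± 0.28, adjusted p = 0.0125 and 1.49e-10). At 52, 56, 60 and 64 h Cldn6 was at 101.2, 74.4, 165 and 261.2 CPM and Cldn7 at 8.91, 11.9, 18.1 and 38.6 CPM. Cgn rose in both spans too, from 14 to 60.2 and 158 CPM at 88 h (1.5 ± 0.27 and 1.13 ± 0.19, adjusted p = 5.25e-05 and 2.31e-05).

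Ocln was at 4.27 CPM at 0 h, 13.8 at 48 h and 70.0 at 88 h (0.87 ± 0.29 and 1.63 ± 0.21, adjusted p = 0.0188 and 3.58e-07). Without the 0 h library its early change, then taken from 4 to 48 h, was 0.38 (adjusted p = 0.170). Cldn3 rose early from 0.885 to 6.43 CPM (2.39 ± 0.52, adjusted p = 0.000434) and then ranged from 1.75 to 10.6 CPM (-0.07 ± 0.39). Cldn4 went from 33.9 CPM to 84.1 at 4 h, 27.8 at 48 h, 111 at 88 h, 108 at 92 h and 47.2 at 96 h. It gave -0.66 ± 0.31 before 48 h (adjusted p = 0.0903) and rose by 1.41 ± 0.25 after it (adjusted p = 4.12e-05). Without the 0 h library the early change was taken from the high level at 4 h and passed (-0.76, adjusted p = 0.0421). With the length trend removed it passed as well (-0.77, adjusted p = 0.0459). Tjp1 rose by 0.42 ± 0.09 after 48 h (adjusted p = 0.000215). The counts were 5 of 7 before 48 h, where 19.8% of 16343 genes rose, and 6 of 7 after it, where 20.2% did. The median of the 7 genes was 1.35 and then 1.42, against -0.02 and 0.00 for all genes.

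The change from 0 to 92 h differed between SFH and S/L in 5 of 7 genes, each higher in SFH, where 5.3% of 17745 genes were, and the median was 1.40 for the 7 genes and -0.01 for all. The difference (log2) was 2.65 ± 0.70 for Cldn7, 2.00 ± 0.54 for Cldn4, 1.40 ± 0.44 for Ocln, 1.38 ± 0.47 for Cldn6 and 1.21 ± 0.40 for Cgn (adjusted p = 0.00757, 0.0099, 0.0277, 0.0439 and 0.0411). Cldn3 gave 1.54 ± 0.90 and Tjp1 0.17 ± 0.15 (adjusted p = 0.292 and 0.521). Ocln missed the threshold without the 0 h libraries, where the span was 4 to 92 h (0.0627). Cldn6 missed it with the length trend removed (0.0587) and Cgn with a more flexible curve (0.0698). Over all genes the difference passed as positive in 5.3% and as negative in 6.6%. Of 18 regulators the difference was positive in 2, Grhl2 (2.59) and Esrp1 (2.31), and negative in 5, among them Zeb1 (-4.0), Klf5 (-1.96) and Tead4 (-1.48). Of 15 partners it was positive in 3, with Lsr at 1.48, and negative in 3, Jam2 (-5.05), Jam3 (-1.95) and Ildr1 (-1.25). Of 8 polarity genes it was positive in 4, with Amot at 2.46, Crb3 at 1.81 and Patj at 1.73, and negative in Prkci (-0.55). Of 11 adherens and desmosome genes it was positive in 3 and negative in 2, Pkp3 (-1.58) and Perp (-1.45). Summed endoderm markers stood at 260.5 to 6541 CPM over the SFH course and at 408 to 5517 CPM over S/L. Their log level gave r in SFH and S/L of 0.90 and 0.88 with Cldn6, 0.93 and 0.77 with Cgn, 0.84 and 0.73 with Ocln, 0.88 and 0.53 with Cldn7 and 0.39 and -0.59 with Cldn4, all over hours. Before 48 h fibroblast markers fell in 13 of 13 cases in SFH and 11 of 13 in S/L. Their sum went from 344 CPM at 0 h to 60.4 at 96 h in SFH and from 167 to 43.3 CPM at 92 h in S/L, with r of -0.83 to both Cldn6 and Cldn7 in SFH. The part of either marker list in the difference was not tested.

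NTF medium gave 7 time points and a similar order of levels. Cldn6 was at 12.1, 21.3, 35.1, 86.9, 105, 242 and 426 CPM at 0, 4, 10, 24, 48, 72 and 96 h. Each step was upward, and the rise before 48 h on the fitted curve was 3.40 ± 0.37 (adjusted p = 0.000811). Cldn7 was at 3.46, 4.5, 9.04, 10.2, 14.9, 48.8 and 74.4 CPM, also rising at each step (2.42 ± 0.42, adjusted p = 0.00739). Cgn was at 13.4, 24.2, 33.6, 42.6, 40.0, 103.9 and 94.8 CPM (1.90 ± 0.39, adjusted p = 0.0162), a call lost without the 4 h library (0.0527). Ocln was at 14.9, 20.4, 19.4, 18.6, 24.6, 43.7 and 63.4 CPM, rising late. So 3 of 7 rose before 48 h, where 4.29% of 16381 genes did, and their median was 1.90 against -0.02 for all.

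After 48 h Cldn6 (1.41 ± 0.35), Cldn7 (1.98 ± 0.43) and Ocln (1.39 ± 0.30) rose (adjusted p = 0.0380, 0.0197 and 0.0220), where 1.83% of genes did. The median of the 7 genes in this span was 0.79 against 0.03 for all. All 3 calls were lost without the 48 h or the 96 h library (adjusted p up to 0.482). Cldn6 was also lost without 4 h or 10 h, Cldn7 without 24 h, and Ocln without 10 h or 24 h (0.0531 to 0.0866). Cldn4 was at 47.7, 162, 69.2, 66.5, 55.0, 44.8 and 44.2 CPM, highest at 4 h in the library with 5774059 counts and a slope of 0.34. A level higher at 4 h than at 0 h was thus read in all 3 courses, from 1 library each. Cldn3 went from 1.30 CPM at 0 h to 9.34 at 48 h and 6.76 at 96 h, without a call (2.24 ± 0.62, adjusted p = 0.0513, and -0.71). Its early change passed with the Wald test of DESeq2, halved counts, the length trend removed or no 96 h library (adjusted p = 0.00508 to 0.042). In 10 of 14 alternatives it did not. Tjp1 ranged from 143 to 269 CPM, with r = 0.96 to the length slope over the 7 libraries.

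The junction's other genes moved along the courses as well. Before 48 h Cgnl1 rose in S/L (1.72), SFH (2.14) and NTF (2.50), and Jam2 (-1.22, -2.65 and -1.81) and Ildr1 (-1.37, -3.89 and -2.78), a tricellular junction receptor, fell in each. After 48 h Crb3 rose by 3.10 in SFH and 2.38 in NTF, and Patj by 1.68 in S/L, 1.90 in SFH and 1.58 in NTF. Marveld2 and Tjp3 rose by 1.42 and 1.16 in S/L and by 1.78 and 2.10 in SFH. In this span 14.7%, 20.2% and 1.83% of all genes rose in S/L, SFH and NTF, and of 8 polarity genes 5, 6 and 3 did, while Prkci fell in SFH (-0.60). Of 11 adherens and desmosome genes 5 fell before 48 h in S/L, among them Jup (-1.29) and Cdh1 (-1.05), and 6 fell in SFH, and 7 and 9 rose after it, with Dsp at 2.02 and 1.85. Of 15 partners 7 fell and 4 rose in SFH before 48 h, where 19.1% of all genes fell and 19.8% rose. In S/L 23.2% of all genes fell before 48 h. Esrp1 rose before 48 h by 1.66, 4.55 and 2.78 in S/L, SFH and NTF, and Amot by 3.11, 5.62 and 4.57. After 48 h Zeb1 fell (-1.16, -2.79 and -2.83 in the same order).

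**Figure D5:**
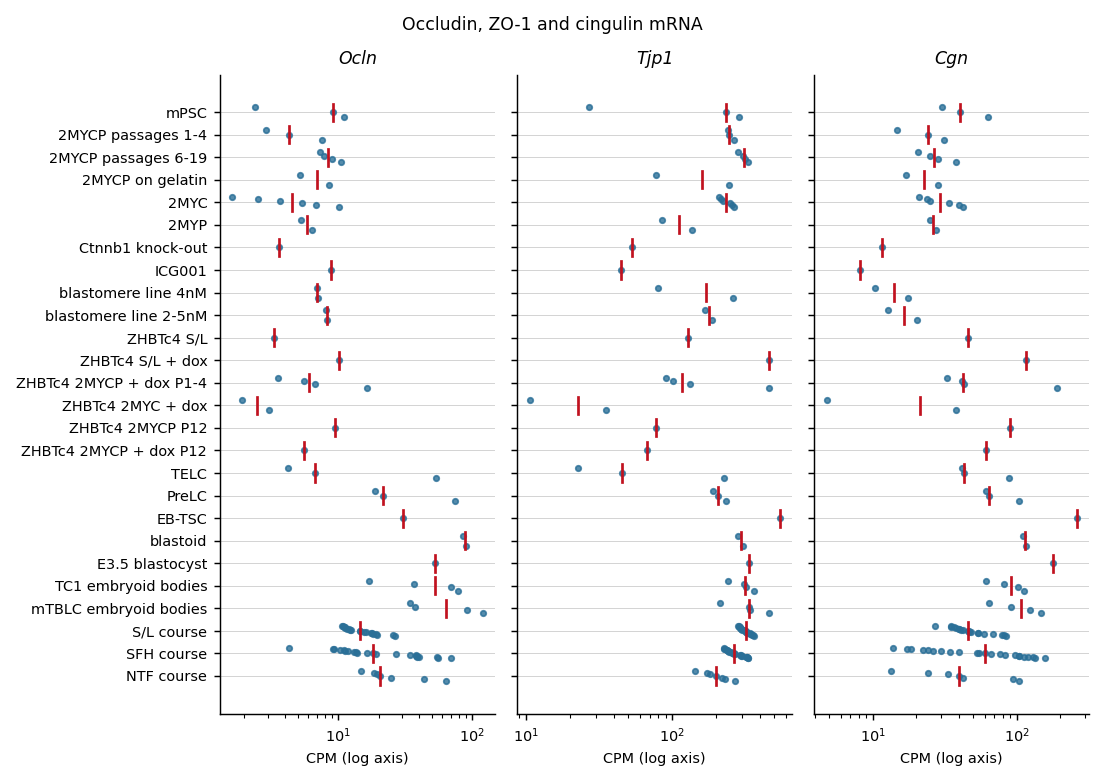
CPM of Ocln, Tjp1 and Cgn on a log axis, 1 point per library and a red line at each group's median, for all 26 groups. Ocln reaches 120 CPM in mTBLC embryoid bodies, Tjp1 544 CPM and Cgn 262 CPM in the EB-TSC library.

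Embryoid bodies, taken 1 library a day, carried junction mRNA at every day. In TC1 bodies at days 3, 8, 10 and 12, Cldn6 was at 53.8, 294, 427 and 567 CPM, Cldn7 at 24.2, 74.2, 83.8 and 109 CPM and Ocln at 16.9, 36.5, 69.2 and 78.6 CPM. Each of these was higher at each later day. In mTBLC bodies Cldn6 was at 298, 309, 561 and 489 CPM and Cldn4 at 286, 21, 10.49 and 19.9 CPM. The high Cldn4 value belongs to the day 3 library with the low Pou5f1 named above. Cldn4 in TC1 bodies stayed at 44.7 to 56.6 CPM. EB-TSC held 270.1 CPM of Cldn4, 377 of Cldn6, 94.3 of Cldn7, 9.74 of Cldn3 and 30.5 of Ocln.

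The remaining culture variants differed in Cldn4 and held under 10 CPM of Cldn7. In 2MYC medium Cldn4 ranged from 37.0 to 63.4 CPM (median 61.1), Cldn6 from 10.7 to 27.3 (median 16.5), Cldn7 from 0.752 to 9.90 (median 1.95) and Cldn3 from 1.0 to 5.11 CPM (median 2.05). The 2 libraries in 2MYP medium held 47.0 and 30.3 CPM of Cldn4 and 3.44 and 2.67 CPM of Cldn7. Blastomere lines held 58.6 to 100.7 CPM of Cldn4 and 1.26 to 3.14 CPM of Cldn7. The Ctnnb1 library, with 174 CPM of Ctnnb1 against 893 to 926 CPM in established mTBLCs, held 79.5 CPM of Cldn4, 29.5 of Cldn6 and 6.31 of Cldn7. The ICG001 library held 203 CPM of Cldn4 and 4.06 CPM of Cldn6, the lowest Cldn6 of all libraries. Both have length slopes below -0.6, and neither has a replicate. Without a knock-out, Ctnnb1 was at 199 CPM in TELC passage 1 (slope -1.33) and 222 CPM in the mPSC library with a slope of -0.99. It was at 512 CPM in gelatin passage 7 (-0.56) and 819 CPM in ZHBTc4 2MYCP with doxycycline at passage 1 (-0.62).

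Over all libraries Cldn6, Cldn7, Ocln and Cgn went together, with Pearson r from 0.55 to 0.86 between them. Cldn3 gave 0.61 with Cldn7, and Tjp1 gave at most 0.53, with Ocln. Cldn6 went most closely with Cldn7 (Pearson r of log2(CPM + 1) = 0.86), Cldn3 with its neighbour Cldn4 (0.78), Cldn6 with Cgn (0.76) and Ocln with Cgn (0.76), while Cldn4 and Cldn6 gave 0.10 and Cldn3 and Tjp1 -0.45. Outside the 7 genes, Cldn7 was most like Crb3 (0.94), Prss8 (0.92) and Lsr (0.89), and Cldn6 most like Patj (0.88), Pcbd1 (0.88) and Lgmn (0.88). Cldn3 and Cldn4 both had Epn3 (0.84 and 0.81) and Krt7 (0.81 and 0.81) first, with Rhox9 (0.79) and Phldb3 (0.78) next. Ocln was most like Nudt11 (0.86), Slc16a1 (0.83) and Clcn5 (0.83), Cgn most like Ptpn13 (0.84), Morc4 (0.84) and Patj (0.82), and the genes most like Tjp1 included Ric1 (0.96) and Btbd7 (0.94). The libraries share lines, media and depth in blocks, so these values describe the set of libraries and carry no p.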

How the data were processed

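The values are raw counts per gene symbol in 18 tables as the authors deposited them (104 libraries, 24984 rows). Trimmomatic, HISAT2, featureCounts and the builds mm10 and hg38 are named per the submitters' processing notes, without versions. Libraries were made with the VAHTS Universal V8 kit, per the labels. The annotation, strand setting and read pairing are not given in the sources used here. After 26 rows with date-like names were left out, 24958 genes were joined by symbol.

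CPM used raw totals. Tests used edgeR 4.0.16 (filterByExpr, TMM, quasi-likelihood F), with Benjamini-Hochberg adjustment over all genes tested and a threshold of 0.05. Each SE was the size of the log2 change divided by the root of its F statistic. Related groups shared 1 fit and its spread, and single libraries had no test of their own. Course fits used natural splines in hours. Their changes are differences of fitted values at 0, 48 and 92 h, or 96 h in NTF, and not of the single libraries quoted. Alternatives included size factors and the Wald test of DESeq2 1.42.0, no filter on low counts and halved counts. Of counts above 0 and under 20, 68.5 to 92.5% were even in each library. Each library of the compared groups and of NTF was also left out in turn. For the S/L and SFH courses and their difference only the 0 h libraries were left out. Spans that began at 0 h then began at 4 h. Removal of the length trend, TELC passage 0 alone, ZHBTc4 passages 2 and 4 alone and NTF without 4 h and 24 h were added after seeing the data. Fits were tested on simulated data with 4-fold changes. Of these 10.5% were found for ZHBTc4 2MYC against 2MYCP, the lowest share, and 75.5% for S/L before 48 h, the highest. A missing call therefore does not show that a level stayed the same. Named genes are the 7 members and, from each other list, up to 3 per direction with the largest changes past the threshold and a mean of at least 5 CPM. Members and lists were chosen with earlier results of these data known. 1 gene named by the likeness rule is not reported here.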

Additional observations from a re-analysis of the deposited data

Results flagged for a closer look

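The change from 0 to 92 h differed between SFH and S/L medium, by the interaction test, for Cldn4 (2.00), Cldn6 (1.38), Cldn7 (2.65), Ocln (1.40) and Cgn (1.21, all log2). A gap test within groups of 4 to 10 libraries, run on 42 combinations of gene and group, picked 7 single libraries. Its nominal rate of about 1 in 20 groups holds for replicates of 1 condition. These groups hold different passages, days or hours, so that rate does not apply to them. In ZHBTc4 cells with doxycycline, passage 2 stood above the rest in Cgn (191 CPM, next 43.4) and Tjp1 (456 CPM, next 132), and passage 3 in Cldn4 (1390 CPM, next 793). In 2MYC medium, passage 6 stood above the rest in Cldn3 (5.11 CPM, next 2.31) and Cldn7 (9.90 CPM, next 3.69). The mTBLC embryoid bodies of day 3 stood above the later days in Cldn4 (286 CPM, next 21). In the NTF course, 4 h stood above the other hours in Cldn4 (162 CPM, next 69.2).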

How the results depend on the processing

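Of 959 refits of a member's change 875 kept their side of the threshold, 56 lost a call and 28 gained one. Where either fit passed, 0 changed sign. Changes without a call in both fits counted as kept whatever their sign. Some of these did turn, such as Cldn3 in S/L before 48 h (0.13, and -0.57 at the lowest). The number of members past the threshold was 3 on gelatin, 1 with controls at passages 6 and 8 and 1 to 3 leaving out each library. It was 3 for established mTBLCs against mPSCs and 5 with the DESeq2 Wald test. For ZHBTc4 2MYC it was 1, and 0 to 2 leaving out libraries. For TELC against PreLC it was 1, then 2 with the DESeq2 Wald test, 0 with the replicate block, 0 with TELC passage 0 alone and 0 to 4 leaving out libraries. For blastoids it was 6, and 3 to 6 leaving out libraries. For NTF it was 3 in each span, 5 in each with a straight line in hours, and after 48 h 1 without the 4 h and 24 h libraries and 0 to 3 leaving out each. The counts for ZHBTc4 2MYCP, the S/L and SFH courses and their difference moved by less than 1.5 times. In these 2 courses and their difference no library but that of 0 h was left out. Over all genes, calls on gelatin went from 2863 to 418 with the passage 6 and 8 controls and 4386 with DESeq2. The largest swings leaving out 1 library were 466 on gelatin (passage 7), 1592 for mTBLCs against mPSCs (of 3402), 540 for ZHBTc4 2MYCP (of 2716), 494 for ZHBTc4 2MYC (of 2744), 360 for blastoids (of 2297), 94 for NTF before 48 h (of 1168) and 0 to 6885 for TELC (of 164). The causes were not tested. With the passage number as a replicate block ZHBTc4 2MYCP kept 4 members with 1508 genes, and 2MYC kept 1 with 817. Deviations at equal numbers correlated by 0.01 to 0.11 for ZHBTc4 2MYCP with early mTBLC and by -0.13 to 0.08 for ZHBTc4 2MYC with 2MYCP. For TELC with PreLC the values were 0.08 to 0.20. With so few libraries per group they cannot tell whether equal numbers share more than a number.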
